A study of Mus musculus with 24 samples.

Results

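Cyclic AMP is a second messenger that raises the intrinsic growth state of sensory neurons, and the genes described here make it, degrade it or carry its signal. They were all genes on the array whose name is *Adcy*, *Pde*, *Rapgef* or *Akap* followed by a digit, or starts with *Prkaca*, *Prkacb*, *Prkar1* or *Prkar2*. This gave 64 of the 27398 gene names and 148 of the 41174 probes. There were 10 adenylyl cyclases, 24 cyclic nucleotide phosphodiesterases and their subunits, 2 further genes with a *Pde* name, 6 subunits of protein kinase A (PKA), 6 exchange factors of the small G protein Rap and 16 A-kinase anchoring proteins. RNA was measured in L4 and L5 dorsal root ganglia (DRGs) of adult male *Nfil3* knockout (KO) mice and wildtype (WT) littermates, all C57BL/6J. NFIL3 is a transcriptional repressor that acts on genes also driven by CREB, a factor that PKA activates. The KO is a germline deletion, made with a Cre that is active under a CMV promoter, so it is not limited to neurons. The groups were WT control, WT day 2, WT day 5, KO control, KO day 2 and KO day 5, with 4 samples each. Control DRGs came from the non-injured side, and the other groups were taken 2 or 5 days after the sciatic nerve had been cut and rejoined. The methods call the 4 samples of a condition independent replicates. How many animals a sample holds, and which control and lesioned samples share an animal, is not given in the sources used here. The labels name the tissue as DRG neurons, while the dissected material was whole ganglion.

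Adenylyl cyclases make cAMP from ATP when G protein coupled receptors activate them. Phosphodiesterases (PDEs) break it down, and the families differ in substrate and control: PDE4, PDE7 and PDE8 act on cAMP, PDE5, PDE6 and PDE9 on cGMP, and PDE1, PDE2, PDE3, PDE10 and PDE11 on both. PKA is held inactive by its regulatory subunits until they bind cAMP, and anchoring proteins place it near its substrates. In DRG neurons, cAMP given before an injury is known to increase axon growth, and peripheral lesion is known to raise cAMP in the ganglion.

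Values are log2 intensities after background correction and quantile normalization, and 1 unit is a doubling. Of the 64 genes, 47 were marked as well above background in all 24 samples, 13 in some and 4 in none, namely *Akap4*, *Akap14*, *Pde6a* and *Pde6c*. A gene was represented by its brightest probe, and it was called when the Benjamini-Hochberg adjusted p-value of the linear model in limma, over all probes, was under 0.05. Because each probe has its own brightness, intensities of different genes were not compared. In the whole data set 54.5% to 72.3% of probes were well above background in a sample, no spot was saturated, and samples of a group correlated at 0.952 to 0.975. The brightest *Nfil3* probe was at 8.44 to 11.08 in all 12 WT samples. In KO samples it was at 2.82 to 6.22, except in KO control replicate 4, where it was at 7.59. Another label field of that sample gives day 5, while its title gives day 0, as do the titles of all control samples. Each array held 2 samples, 1 per dye, and for 12 samples the other sample on the array was of the same time point. *Sprr1a*, a gene known to be strongly induced by axon injury, was at 5.48 to 6.11 in the 4 control samples that shared an array with another control. It was at 8.15 to 11.71 in the 4 that shared an array with a lesioned sample. Results are therefore also given without KO control replicate 4 and for the 12 samples on arrays of 1 time point. All 10 sensory neuron markers, *Tubb3*, *Isl1* and *Prph* among them, were above background in every sample. All satellite glia, Schwann cell, macrophage, endothelial and fibroblast markers were above background in every sample as well.

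The lesion changed 37 of the 64 genes (57.8%) in an F test of both time points against control, averaged over genotypes, while 26.3% of all gene names passed. At day 2, 28 genes passed, 10 higher and 18 lower, against 9.39% higher and 12.9% lower among all names (22.3% in all). At day 5, 31 passed, 10 higher and 21 lower, against 10.2% higher and 13% lower (23.3% in all). Many array probes carry no signal, so the share among names above background in all samples is also given. There, 27 of 47 genes passed at day 2 (57.4%, against 35.3%) and 29 at day 5 (61.7%, against 37.3%). The median difference of the 64 genes was -0.04 at both time points, and that of all names was -0.02 at day 2 and -0.03 at day 5, so the genes moved in both directions. Both comparisons use the same control samples. For 3 genes every day 2 sample lay above every control sample and for 2 below, against 3.74% and 3.01% of all names. For 6 genes every day 5 sample lay above and for 11 below, against 5.6% and 6.26%. With KO control replicate 4 left out, the F test called 33, day 2 28 and day 5 30 genes. In the 12 samples on arrays of 1 time point, with 2 samples per group, it called 16, day 2 18 and day 5 13.

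By role, the F test called 7 of 8 cAMP-specific PDEs, 6 of 8 PDEs that act on both nucleotides and 5 of 6 PKA subunits. It called 3 of 8 genes named for the PDE5, PDE6 and PDE9 families, among which *Pde6d* encodes a chaperone rather than a PDE. Also called were 3 of 10 cyclases, 3 of 6 Rap exchange factors, 8 of 16 anchoring proteins and the 2 other *Pde* genes. Among all names 26.3% passed. The cyclases lay near that share. The PDEs went both ways, with *Pde1a*, *Pde1c*, *Pde4b* and *Pde7a* higher and *Pde4a*, *Pde4d*, *Pde8b* and *Pde11a* lower at both time points. Every PKA subunit past the test at either time point was lower. Cyclases past the test were lower, except *Adcy7* at day 5.

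**Figure D1:**
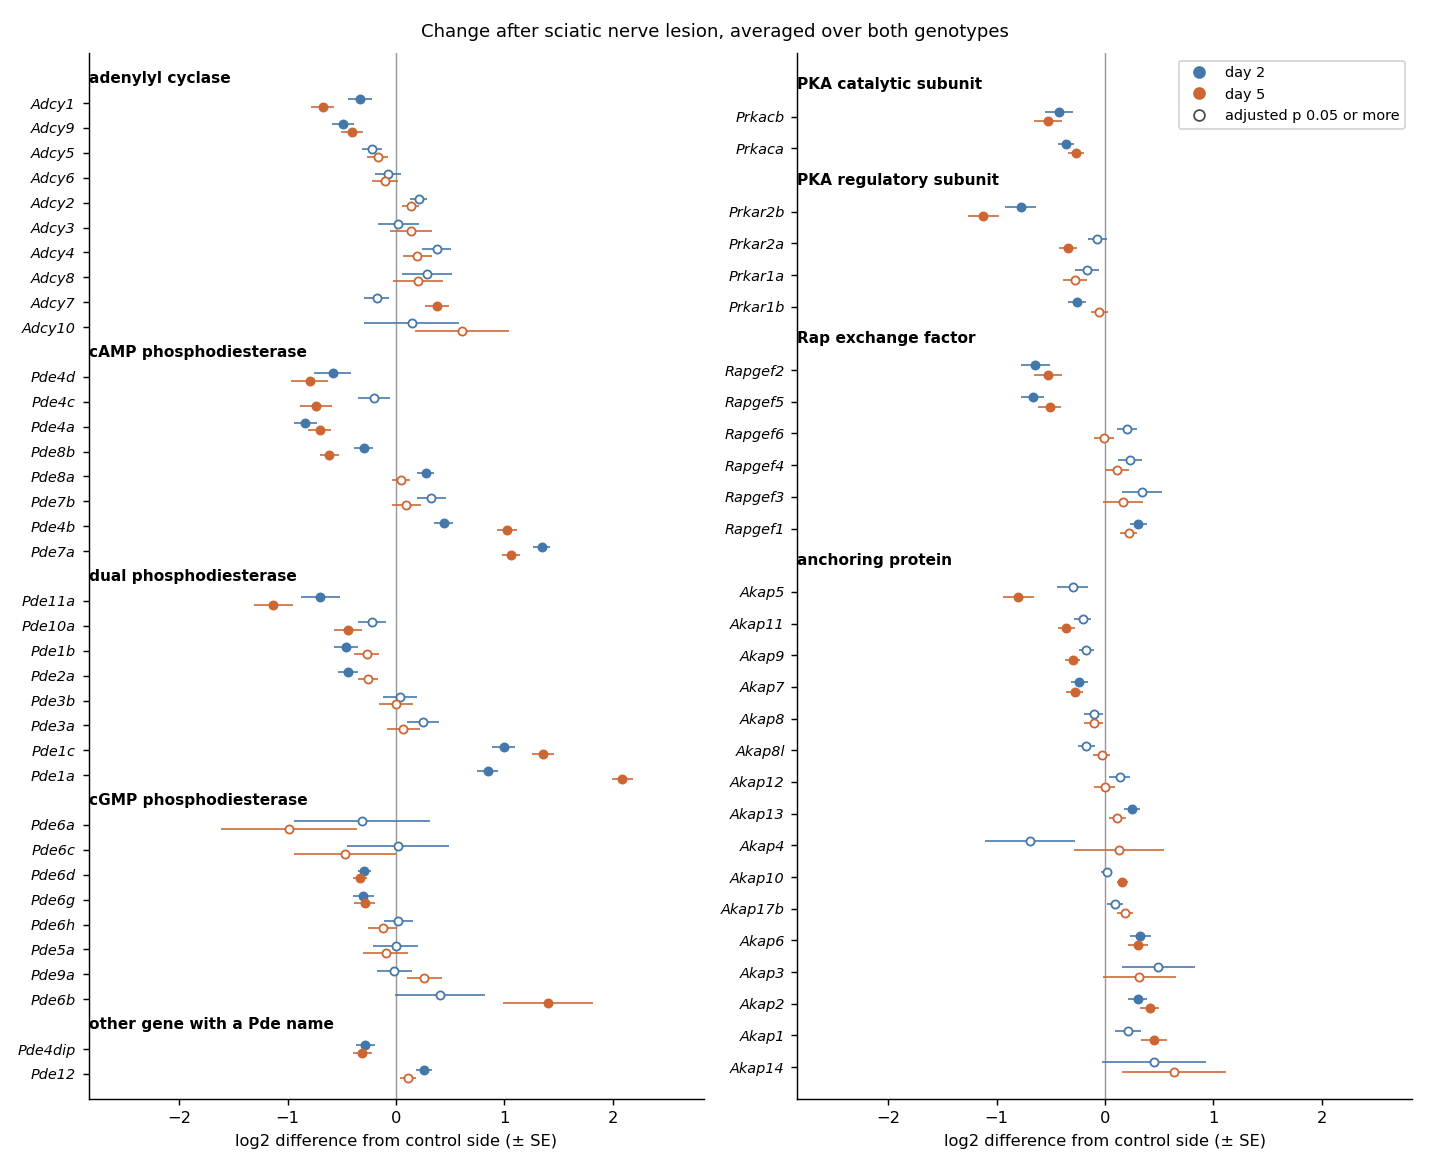
Difference between lesioned and control DRGs for the 64 genes, averaged over genotypes, on a log2 scale (x axis), grouped by role and ordered by the day 5 value within each role (y axis). Points are estimates with their SE from the linear model, blue for day 2 and orange for day 5, filled where the adjusted p-value was under 0.05. *Pde1a* stood farthest to the right at day 5 (2.09), and *Pde11a* (-1.13) and *Prkar2b* (-1.12) were the lowest filled points.

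Among the PDEs that rose, *Pde1a* changed most at day 5, and *Pde7a* and *Pde1c* at day 2. PDE1 enzymes hydrolyze cAMP and cGMP when calcium and calmodulin bind them. In WT samples *Pde1a* was at 7.93, 7.96, 7.88 and 8.14 in control, at 8.92, 9.12, 8.91 and 8.76 at day 2 and at 10.17, 9.997, 10.03 and 9.93 at day 5. In KO samples it was at 7.96, 8.06, 8.31 and 7.99 in control, at 9.16, 8.97, 8.35 and 8.79 at day 2 and at 10.43, 10.21, 10.12 and 10.03 at day 5. The 8 samples of each time point did not overlap with those of another in either genotype, and the lowest day 2 sample, KO replicate 3, lay just above the highest control. The lesion raised *Pde1a* by 0.84 ± 0.10 (SE) at day 2 (1.80-fold, adjusted p = 2.56e-06) and by 2.09 ± 0.10 at day 5 (4.25-fold, adjusted p = 3.64e-12). Day 5 exceeded day 2 by 1.24 ± 0.10 (adjusted p = 3.76e-07).

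All 4 probes for *Pde1a* gave this picture, with 0.80 to 0.85 at day 2 and 1.92 to 2.25 at day 5. The probe used spans a splice junction, since its 60 bases cover 26096 bases of the minus strand at chr2:79679145-79705240 (mm9). Its sequence, as the array files give it, is shown because it carries the largest change:
Pde1a, A_51_P327016: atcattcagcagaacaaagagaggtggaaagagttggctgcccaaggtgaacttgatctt
On the arrays of 1 time point *Pde1a* differed from control by 0.95 at day 2 and 2.15 at day 5, both past the threshold.

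*Pde1c*, the paralog of *Pde1a* with a high affinity for cAMP, rose in every sample too. Its control samples ran from 7.72 over a median of 7.94 to 8.05, day 2 from 8.54 over 9.0 to 9.09 and day 5 from 8.76 over 9.28 to 9.50. All lesioned samples lay above all control samples. The difference was 0.99 ± 0.10 at day 2 (1.99-fold, adjusted p = 5.35e-07) and 1.35 ± 0.10 at day 5 (2.56-fold, adjusted p = 4.29e-09). Of 6 *Pde1c* probes 4 passed at each time point, among them the 3 that were above background in all samples. *Pde1b*, the third PDE1 gene, went the other way and passed at day 2 only (-0.46 ± 0.11, adjusted p = 0.00564; -0.27 ± 0.11, adjusted p = 0.102 at day 5).

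*Pde7a* encodes a cAMP-specific PDE that rolipram, the classical PDE4 inhibitor, does not block. It was at 7.67 to 8.01 (median 7.89) in control, at 8.91 to 9.51 (9.19) at day 2 and at 8.74 to 9.13 (8.93) at day 5. Lesioned and control samples did not overlap. It was the most raised of the 64 genes at day 2, by 1.34 ± 0.08 (2.54-fold, adjusted p = 1.97e-10), and was raised by 1.06 ± 0.08 at day 5 (2.08-fold, adjusted p = 4.97e-09). A second probe gave 0.45 at both time points, also past the threshold, so the direction but not the size was shared between probes.

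*Pde4b*, the PDE4 gene known to be induced in inflammatory cells, rose between time points. Its control samples were at 7.37 to 7.87 (median 7.57), day 2 samples at 7.84 to 8.25 (8.07) and day 5 samples at 8.30 to 8.88 (8.63). Day 5 samples lay above all control samples, while the lowest day 2 sample was below the highest control. The difference was 0.44 ± 0.09 at day 2 (1.36-fold, adjusted p = 0.00104) and 1.02 ± 0.09 at day 5 (2.03-fold, adjusted p = 3.01e-08), and day 5 exceeded day 2 by 0.59 ± 0.09 (adjusted p = 4.67e-04). Of its 5 probes, the 2 brightest passed at both time points. The other 3 were above background in 1 to 7 of the 24 samples and did not pass, with differences from -0.30 to -0.96 at day 5. With the mean of all probes, these dim ones included, the day 5 difference was 0.0017 and the call was lost.

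*Pde6b*, a catalytic subunit of the photoreceptor cGMP PDE, was well above background in 0 of 8 control, 3 of 8 day 2 and 8 of 8 day 5 samples. Its day 5 samples (4.60 to 5.24) lay above all controls (2.63 to 4.16). In the main processing, bounds on the group means put day 5 at least 2.01-fold higher in WT and 2.37-fold higher in KO. These bounds carry no sampling error and hold for that processing only. The size is uncertain, as the alternatives gave log2 differences of 0.32 to 2.15 for both genotypes together, the lowest of them below both bounds. The adjusted p-value was 0.0178 for both genotypes together, and 0.136 in WT and 0.155 in KO alone. *Pde8a* was higher at day 2 only (0.27 ± 0.08, adjusted p = 0.0201).

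Among the PDEs that fell, *Pde11a*, which hydrolyzes both nucleotides, changed most at day 5, and *Pde4a* at day 2. In WT it was at 7.56, 7.50, 7.60 and 7.12 in control, at 7.04, 6.58, 6.19 and 6.85 at day 2 and at 6.09, 6.03, 6.62 and 6.10 at day 5. In KO it was at 7.78, 7.53, 7.26 and 7.35 in control, at 6.14, 7.20, 7.62 and 6.49 at day 2 and at 6.80, 6.45, 6.35 and 6.19 at day 5. All day 5 samples were below all controls, whereas KO day 2 replicates 2 and 3 were within the control range. The difference from control was -0.70 ± 0.18 at day 2 (1.62-fold lower, adjusted p = 0.0082) and -1.13 ± 0.18 at day 5 (2.19-fold lower, adjusted p = 9.16e-05). The 3 *Pde11a* probes that were above background in 19 to 24 samples passed at both time points, with -0.67 to -0.75 at day 2 and -0.88 to -1.13 at day 5. One of them also spans a splice junction, with its 60 bases spread over 15837 bases at chr2:75869045-75884881 on the minus strand (mm9):
Pde11a, A_52_P573: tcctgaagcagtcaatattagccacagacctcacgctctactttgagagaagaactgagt

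The PDE4 genes *Pde4a* and *Pde4d* fell where *Pde4b* rose. These rolipram-sensitive enzymes provide much of the cAMP breakdown of neurons. *Pde4a* was at 6.90 to 7.43 (median 7.24) in control, at 6.07 to 6.80 (6.37) at day 2 and at 6.36 to 6.69 (6.51) at day 5, so lesioned and control samples did not overlap. Its difference was -0.84 ± 0.11 at day 2 (1.79-fold lower, adjusted p = 7.89e-06) and -0.71 ± 0.11 at day 5 (1.63-fold lower, adjusted p = 4.43e-05). The other 2 *Pde4a* probes, which lie closer to the start of the gene, were not above background in all samples and did not pass. With the mean of all probes the day 2 call was lost.

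*Pde4d* differed by -0.58 ± 0.17 at day 2 (adjusted p = 0.0176) and by -0.79 ± 0.17 at day 5 (adjusted p = 0.00154), and 4 of 4 probes passed at day 2 and 3 of 4 at day 5. Its day 5 samples, at 7.27 to 7.94, were all below the controls, at 8.20 to 8.70, while the day 2 samples ranged from 7.23 to 8.73. *Pde4c* passed at day 5 only, with -0.74 ± 0.15 (adjusted p = 8.09e-04) after -0.20 ± 0.15 at day 2 (adjusted p = 0.395). *Pde8b*, a cAMP PDE with very high affinity, differed by -0.30 ± 0.09 at day 2 (adjusted p = 0.0207) and by -0.61 ± 0.09 at day 5 (adjusted p = 3.31e-05), again with no overlap at day 5. Only 1 of its 2 probes passed at each time point, and both calls were lost with the mean of all probes.

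Smaller PDE changes were seen in *Pde2a*, which cGMP stimulates and which passed at day 2 (-0.44, adjusted p = 0.00181; -0.26, adjusted p = 0.056 at day 5), and in *Pde10a*, which passed at day 5 (-0.45, adjusted p = 0.0167). *Pde6d*, a chaperone for lipid-modified proteins despite its name, was lower at both time points (-0.29 and -0.33), as was *Pde6g* (-0.30 and -0.29). *Pde3a*, *Pde3b*, *Pde5a*, *Pde6h*, *Pde7b* and *Pde9a* passed at neither time point, and none of them was above background in all samples. Of the 2 genes that share only the name, *Pde12*, a mitochondrial RNA-trimming enzyme, was higher at day 2 (0.26, adjusted p = 0.0166). *Pde4dip*, a centrosome and Golgi scaffold, was lower at both time points on its brightest probe. A dim *Pde4dip* probe, above background in no sample, passed in the opposite direction, and this was the only one of 40 genes with several probes where probes were called in opposite directions at the same time point.

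**Figure D2:**
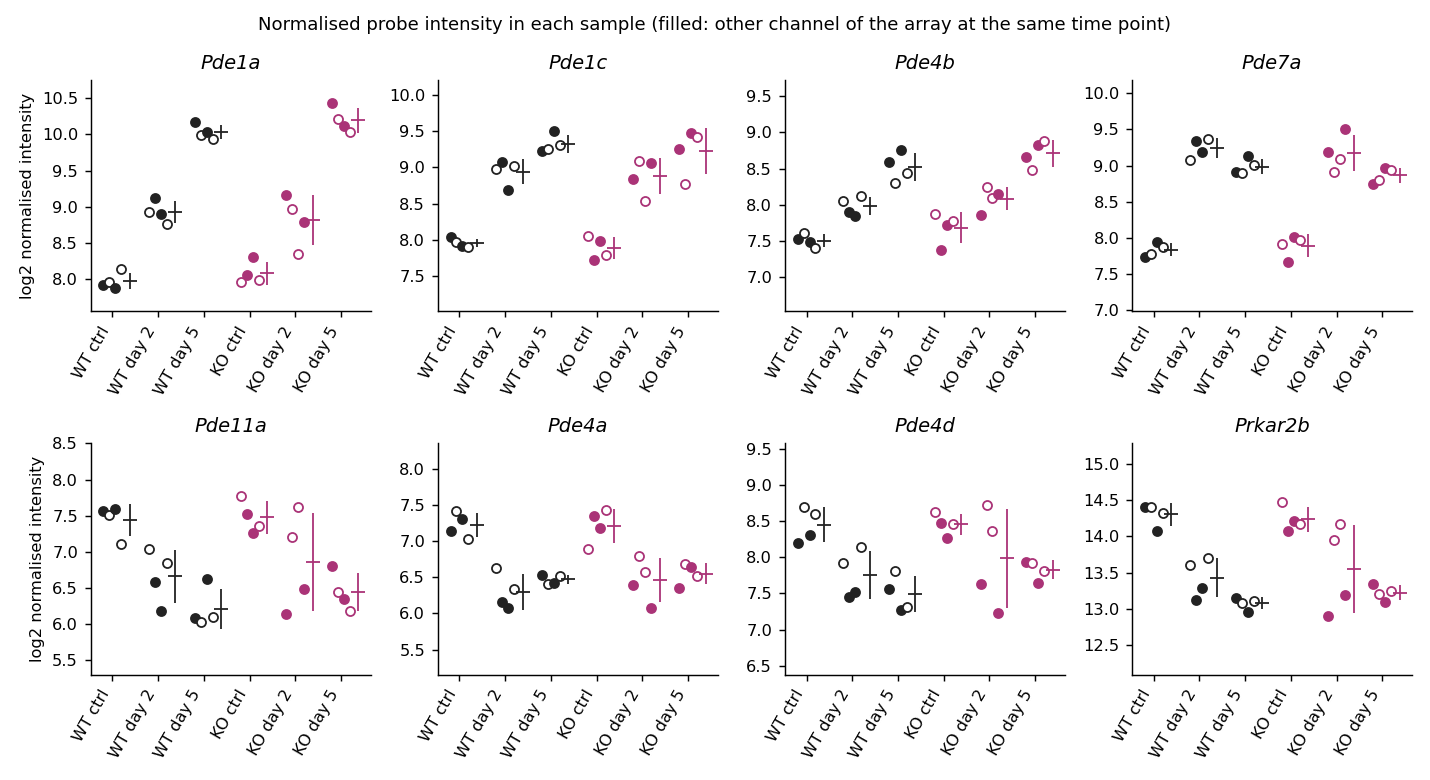
Log2 normalised intensity (y axis) of 8 PDE and PKA genes in each of the 24 samples, by group (x axis), with the group mean and SD beside the 4 points of each group (black WT, purple KO; all y axes span the same number of log2 units). Filled points are samples whose array partner was of the same time point. For *Pde1a* no sample of 1 time point overlaps with another time point, while for *Pde4d*, *Pde11a* and *Prkar2b* the 2 hollow KO day 2 points lie above the 2 filled ones.

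Of the 6 PKA subunits, 4 passed at each time point, and all of these were lower. Among all names, 12.9% passed as lower at day 2 and 13% at day 5. *Prkar2b* encodes RIIβ, the regulatory subunit that is prominent in neurons. In WT it was at 14.41, 14.41, 14.08 and 14.32 in control, at 13.61, 13.12, 13.29 and 13.70 at day 2 and at 13.15, 13.08, 12.96 and 13.11 at day 5. In KO it was at 14.48, 14.07, 14.21 and 14.18 in control, at 12.90, 13.95, 14.17 and 13.19 at day 2 and at 13.35, 13.20, 13.10 and 13.25 at day 5. At day 5 all samples were below all controls, and at day 2 only KO replicate 3 reached the control range. The difference was -0.78 ± 0.14 at day 2 (1.71-fold lower, adjusted p = 4.90e-04) and -1.12 ± 0.14 at day 5 (2.18-fold lower, adjusted p = 7.01e-06).

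Both catalytic subunits were lower at both time points. *Prkaca* differed by -0.36 ± 0.07 at day 2 (adjusted p = 0.00109) and by -0.27 ± 0.07 at day 5 (adjusted p = 0.00936). *Prkacb* differed by -0.42 ± 0.13 (adjusted p = 0.023) and -0.52 ± 0.13 (adjusted p = 0.00516), and its second probe by -0.63 and -0.72. The day 2 call of *Prkacb* was lost without WT day 2 replicate 2 or 3 or KO day 2 replicate 1 or 4, with differences between -0.51 and -0.35 over all samples left out, and also with array as a random block. On arrays of 1 time point the day 5 difference of *Prkacb* was -0.31 (adjusted p = 0.188) and that of *Prkaca* -0.22 (adjusted p = 0.191). Both genes passed there at day 2. Of the other regulatory subunits, *Prkar2a* (RIIα) passed at day 5 (-0.34, adjusted p = 0.00503), *Prkar1b* at day 2 (-0.26, adjusted p = 0.0266), and *Prkar1a* at neither (-0.16, adjusted p = 0.345, and -0.28, adjusted p = 0.0837). The second *Prkar1b* probe, also above background in all samples, was at 0.03 at day 2 and did not pass. With the mean of all probes both calls were lost. That of *Prkar1b* was also lost with processed signals, and that of *Prkar2a* on arrays of 1 time point.

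Of the 10 adenylyl cyclases, 2 passed at day 2 and 3 at day 5, near the 22.3% and 23.3% of all names. *Adcy1*, which calcium and calmodulin stimulate, was at 8.22 to 8.59 (median 8.43) in control, at 7.75 to 8.80 (8.0) at day 2 and at 7.53 to 7.92 (7.77) at day 5, with no overlap at day 5. It differed by -0.33 ± 0.11 at day 2 (adjusted p = 0.035) and by -0.68 ± 0.11 at day 5 (1.60-fold lower, adjusted p = 9.62e-05). The day 2 call was lost when any 1 of 8 samples was left out (WT control replicates 1 and 3, WT day 2 replicates 1, 2 and 4, KO control replicates 2 and 3, KO day 2 replicate 2), with differences from -0.43 to -0.27. The other 3 *Adcy1* probes were dim and did not pass.

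*Adcy9*, a widely expressed cyclase, was below control in all lesioned samples, with -0.49 ± 0.10 (adjusted p = 0.00129) and -0.41 ± 0.10 (adjusted p = 0.00471). *Adcy7*, known from blood cells and macrophages, was the only cyclase that passed as higher. That call, at day 5, was lost with the mean of all probes and on arrays of 1 time point (0.25, adjusted p = 0.331). In the main fit *Adcy7* differed by -0.18 ± 0.11 at day 2 (adjusted p = 0.307) and by 0.38 ± 0.11 at day 5 (adjusted p = 0.0183). Its difference between day 5 and day 2 was 0.56 ± 0.11 (adjusted p = 0.0069). *Adcy7* had a second, dimmer probe, which passed at day 2 (-0.54) and was near 0 at day 5 (0.03). The other 7 cyclases passed at neither time point, with differences of -0.22 to 0.37 at day 2 and -0.17 to 0.61 at day 5. The highest at day 2 was *Adcy4* (adjusted p = 0.0579).

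Day 5 differed from day 2 for 3 genes, *Pde1a*, *Pde4b* and *Adcy7*. All were higher at day 5, which is 4.69% of the 64 genes against 2.32% of all names higher and 3.33% called in either direction. This count varied with the samples and settings. It was 5 without KO day 2 replicate 1, 2 or 4, 1 (*Pde1a*) on arrays of 1 time point, 8 with normexp background correction or the filter on dim probes, and 10 without background correction.

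Exchange factors activate the small G protein Rap, and those encoded by *Rapgef3* and *Rapgef4*, the Epac proteins, do so on binding cAMP. *Rapgef2* and *Rapgef5* were lower at both time points, with -0.64 ± 0.13 and -0.67 ± 0.11 at day 2 (adjusted p = 0.00116 and 1.16e-04) and -0.52 ± 0.13 and -0.51 ± 0.11 at day 5 (adjusted p = 0.00526 and 0.0013). *Rapgef5* ranged from 10.24 to 11.09 (median 10.66) in control, from 9.80 to 10.27 (9.98) at day 2 and from 9.87 to 10.48 (10.19) at day 5, so the lesioned samples were low but their ranges overlapped with control. Of the 5 *Rapgef5* probes, 4 passed at both time points. Only 1 of the 2 *Rapgef2* probes passed at each, and both *Rapgef2* calls were lost with the mean of all probes. On arrays of 1 time point neither *Rapgef2* nor *Rapgef5* passed at day 5 (adjusted p = 0.164 and 0.149). *Rapgef1* was higher at day 2 (0.31 ± 0.08, adjusted p = 0.0071). *Rapgef3* (0.34, adjusted p = 0.213; 0.17, adjusted p = 0.613) and *Rapgef6* did not pass.

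For *Rapgef4* (Epac2) the outcome depended on the probe. The brightest probe differed by 0.23 ± 0.11 at day 2 (adjusted p = 0.159) and 0.11 ± 0.11 at day 5 (adjusted p = 0.57). Another probe that was above background in all samples, further along the gene, differed by -0.34 (adjusted p = 0.0408) and -0.38 (adjusted p = 0.0226). Both span splice junctions on the plus strand of chromosome 2, the first at chr2:71869182-71872096 and the second at chr2:72080822-72091028 (mm9), and they are shown because they read different parts of the transcript:
Rapgef4, A_52_P292498: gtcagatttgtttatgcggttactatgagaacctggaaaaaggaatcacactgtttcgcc
Rapgef4, A_51_P285916: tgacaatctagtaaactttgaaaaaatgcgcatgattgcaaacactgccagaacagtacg
The 2 remaining *Rapgef4* probes were also lower at day 2, at -0.36 (adjusted p = 0.164) and -0.37 (adjusted p = 0.0436).

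**Figure D3:**
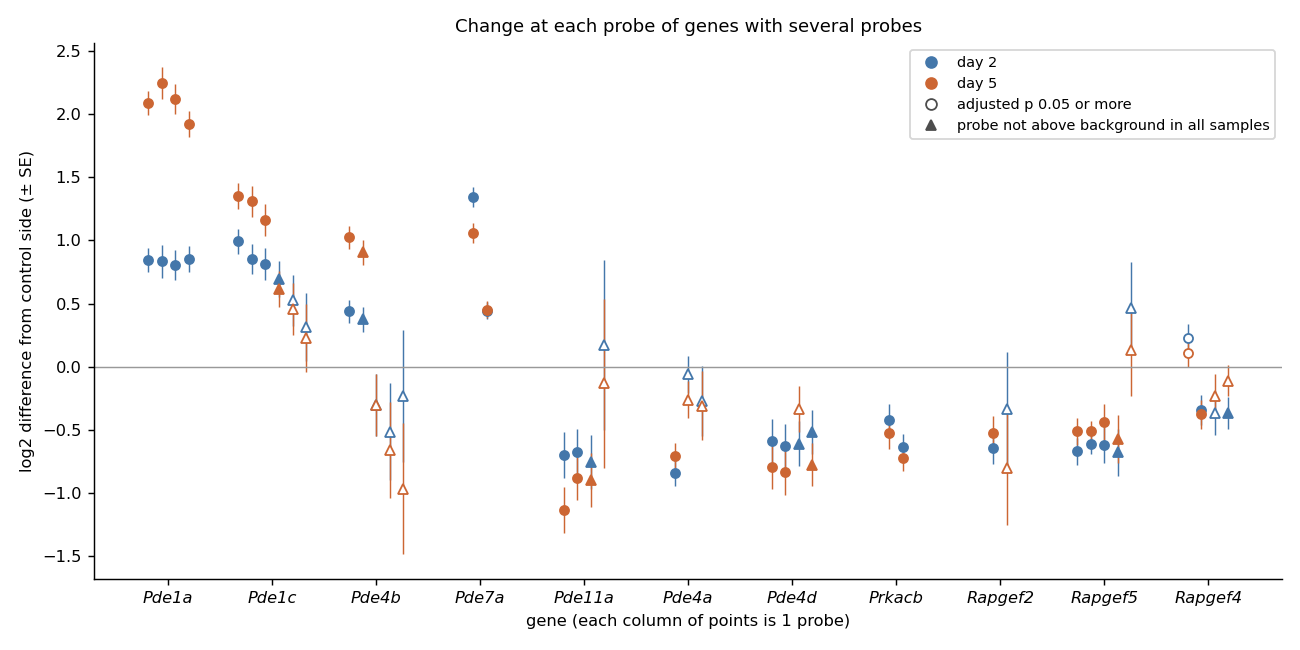
Log2 difference between lesioned and control DRGs (y axis, ± SE) at every probe of 11 genes that have several (x axis), blue for day 2 and orange for day 5, filled where the adjusted p-value was under 0.05. Triangles mark probes that were not above background in all 24 samples. The 4 *Pde1a* probes lie together, the 2 *Pde7a* probes share the direction but not the size, and the brightest *Rapgef4* probe lies on the other side of 0 from the other 3.

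Of the 16 anchoring proteins, 4 passed at day 2, near the 22.3% of all names, and 8 at day 5 (against 23.3%), with 4 higher and 4 lower. *Akap5*, which holds PKA, calcineurin and protein kinase C at the membrane of neurons, was lower at day 5. It was at 4.76 to 5.32 (median 5.00) in control, at 4.22 to 5.38 (4.74) at day 2 and at 3.52 to 4.62 (4.30) at day 5, with no overlap at day 5, and 17 of its 24 values were well above background, among them 7 of 8 in control but 1 of 4 in WT and 3 of 4 in KO at day 5. The difference was -0.30 ± 0.14 at day 2 (adjusted p = 0.162) and -0.80 ± 0.14 at day 5 (adjusted p = 3.07e-04). The size at day 5 is uncertain, as the alternatives gave -1.31 to -0.22, all past the threshold.

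The remaining anchoring proteins past the threshold changed by less than 0.5. *Akap2* (0.30 and 0.41) and *Akap6* (0.33 and 0.30), a scaffold at the nuclear envelope, were higher at both time points. *Akap1*, which sits on the outer mitochondrial membrane, was higher at day 5 (0.45), as was *Akap10* (0.16), and *Akap13* was higher at day 2 (0.25). *Akap7* was lower at both (-0.24 and -0.28), and *Akap9* (-0.30), a centrosome and Golgi scaffold, and *Akap11* (-0.36) at day 5. On arrays of 1 time point, with 2 samples per group, all these smaller calls were lost except that of *Akap7* at day 5 (-0.44, adjusted p = 0.0383). *Akap12*, *Akap8*, *Akap8l* and *Akap17b* were above background in every sample and passed at neither time point.

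Some of these smaller calls depended on single samples. The calls of *Akap13* at day 2 (without WT day 2 replicate 2), *Akap6* at day 5 (4 of the 24 fits with a sample left out), *Prkar1b* at day 2 (5), *Akap10* at day 5 and *Pde4dip* at day 2 (7 each), *Pde6g* at each time point (8) and *Akap7* at day 2 (9) were lost, and no difference changed sign. On arrays of 1 time point, *Pde1a*, *Pde1c*, *Pde4a*, *Pde4d*, *Pde7a*, *Pde11a* and *Prkar2b* passed at both time points, with *Pde11a* at -1.14 and -1.02 and *Prkar2b* at -1.06 and -1.05. *Pde4b* there was at 0.41 (adjusted p = 0.0645) and 1.18 (adjusted p = 0.0013). Within each of the 3 slides, 27 of the 29 changes past the threshold among the 16 genes that moved most kept their direction, and the exceptions were *Pde11a* and *Pde8b* at day 2. Slide 1 held only 1 day 2 sample, so its day 2 values rest on that sample (KO replicate 3), and *Pde4d* was there at -0.0041.

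Markers of other cell types moved with the lesion. Among all names, 9.39% were higher and 12.9% lower at day 2, and 10.2% and 13% at day 5. Of 6 macrophage markers, 3 were higher at day 2 and 6 at day 5, and their summed intensity rose from 9.84 to 10.79 in control samples to 10.39 to 11.39 at day 2 and 11.55 to 12.07 at day 5. Of 10 sensory neuron markers 6 were lower at each time point, among them *Scn10a* and *Nefh*, and *Tubb3* was higher at day 5. Their summed intensity was at 19.17 to 19.43 in control, 18.91 to 19.13 at day 2 and 18.76 to 19.14 at day 5. All markers of both lists were above background in all 24 samples. Of 5 satellite glia markers, 2 were higher and 3 lower at day 2, and 2 and 2 at day 5, with a summed intensity of 15.05 to 15.50 in control, 14.81 to 15.14 at day 2 and 15.07 to 15.38 at day 5. Both smooth muscle markers were higher at day 5, where their sum was 11.95 to 12.45 against 11.50 to 12.04 in control. In whole ganglia, fewer cells of a type and less RNA per cell cannot be told apart, and the part of these shifts in the values of the 64 genes was not tested. Of 3 T cell markers none passed, nor did any of 5 Schwann cell markers at day 5 (1 was higher at day 2).

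Of 37 other genes of the pathway 36 were on the array. These included ligands and receptors, G proteins, PKA inhibitors, Rap proteins, CREB family members and targets of CREB. At day 2, 14 of the 36 were higher and 5 lower, against 9.39% higher and 12.9% lower among all names. At day 5, 11 were higher and 5 lower, against 10.2% and 13%. The lists were written with earlier results of these data known. The ligand *Adcyap1* (PACAP), a neuropeptide whose receptor raises cAMP, had the largest change, 2.06 ± 0.08 at day 2 (4.16-fold, adjusted p = 3.23e-13) and 1.43 ± 0.08 at day 5 (adjusted p = 5.15e-11). The PACAP receptor gene *Adcyap1r1* was higher at day 2 (0.31, adjusted p = 0.0434), and *Vipr2* was lower at both (-0.67 and -0.66). The *Vip* probe, counted among the genes higher at day 2 (adjusted p = 0.0425), was not well above background in any sample.

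*Crem*, which encodes activators and inducible repressors of cAMP response elements, rose by 1.51 ± 0.09 and 1.52 ± 0.09 (adjusted p = 1e-10 and 6.22e-11), and *Creb1* by 0.37 at each time point. The *Crem* isoforms were not told apart here. Of 9 genes known as CREB targets, 6 were higher at day 2 and 5 at day 5, against 9.39% and 10.2% of all names. Among them, *Dusp1* was at 1.16 and 0.93 and *Arg1* at 1.08 and 0.97. Only 3 of the 8 control samples measured *Arg1* above background (1 in WT, 2 in KO), so the size of its difference is uncertain. *Pkib*, an inhibitor of the PKA catalytic subunits, rose by 1.33 ± 0.09 at day 2 (adjusted p = 1.67e-09) and 0.97 ± 0.09 at day 5, while *Pkia* and *Pkig* did not pass. Of the inhibitory G protein subunits, *Gnao1* was lower (-0.70 and -0.77), *Gnai1* was lower (-0.42 and -0.39), *Gnaz* was lower at day 2 (-0.37), and *Gnai3* was higher (0.39 and 0.35). Of the stimulatory subunits, *Gnal* was lower at day 5 (-0.50, adjusted p = 0.00627) and *Gnas* did not pass.

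**Figure D4:**
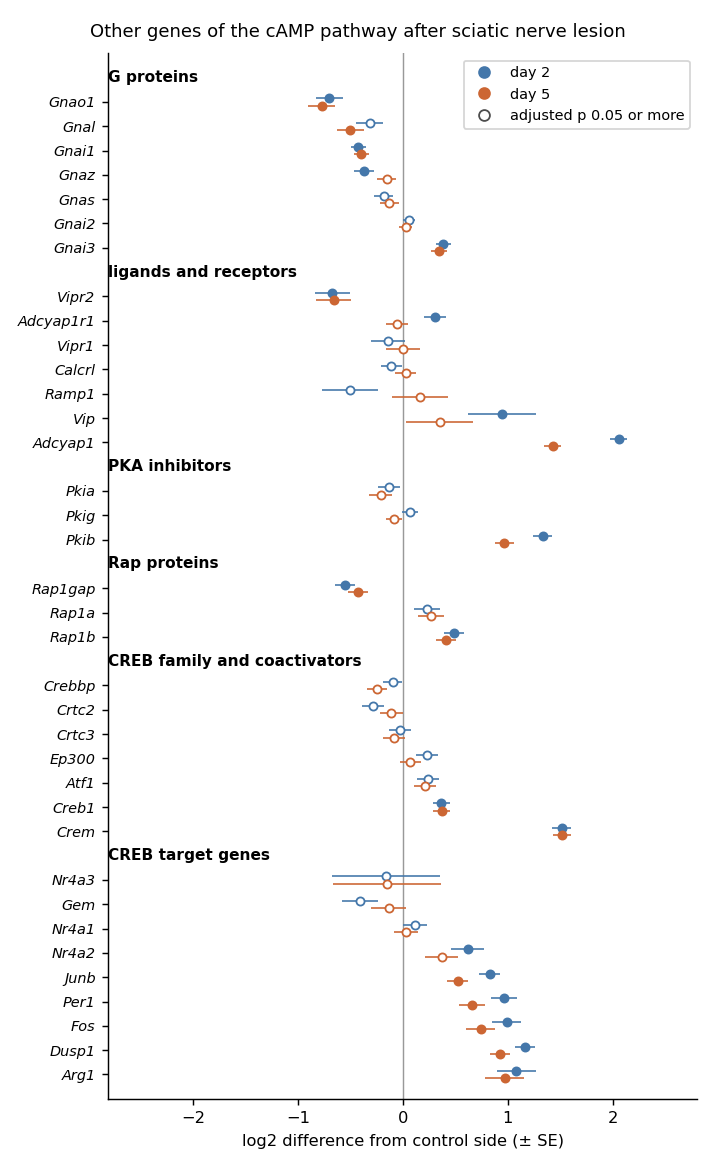
Log2 difference between lesioned and control DRGs (x axis, ± SE) for the 36 other pathway genes on the array (y axis), averaged over genotypes, blue for day 2 and orange for day 5, filled where the adjusted p-value was under 0.05. *Adcyap1* (2.06), *Crem* (1.51) and *Pkib* (1.33) lie farthest to the right at day 2.

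The next question was whether deletion of *Nfil3* altered these genes. None of the 64 passed for KO minus WT in control, at day 2 or at day 5, and none passed for the time*genotype interaction. Without adjustment 1, 3 and 0 genes had p under 0.05 in the 3 comparisons and 1 in the interaction (1.56%, 4.69%, 0% and 1.56% of the 64 genes, against 1.7%, 3.86%, 2.34% and 2.11% of all names). After adjustment, among all names, 0% were called in control, 0.0146% at day 2, 0.0109% at day 5 and 0% in the interaction. *Nfil3*, the deleted gene itself, did not pass in control, where its brightest probe differed by -3.98, nor in the interaction. In the same limma fit that probe passed at day 2 (-5.85, adjusted p = 0.00823) and day 5 (-6.49, adjusted p = 0.00259). A count of 0 in control or in the interaction therefore says little about the 64 genes. Over the 47 genes above background in all samples, KO minus WT ranged from -0.21 to 0.24 in control, from -0.35 to 0.27 at day 2 and from -0.31 to 0.34 at day 5. For the median gene the 95% interval, without adjustment, reached 0.28 to either side of the estimate, so smaller differences were not resolved. Larger ones could also be missed after adjustment over all probes, as were *Adcy7* at day 2 (-0.35) and *Nfil3* in control. A result that missed the threshold does not show that the genotypes were alike.

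For the genes that moved most with the lesion, the intervals of KO minus WT were as follows. *Pde1a* differed by 0.16 at day 5 (95% interval -0.13 to 0.45) and *Pde1c* by -0.10 (-0.40 to 0.21). *Pde4b* differed by 0.19 at day 5 (-0.07 to 0.45) and *Pde7a* by -0.12 (-0.36 to 0.12). *Prkar2b* differed by 0.15 (-0.28 to 0.57) and *Pde11a* by 0.24 (-0.30 to 0.78). Each of these intervals held 0.

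The genes with an unadjusted p under 0.05 were *Pde3a* in control (KO minus WT -0.65), which was well above background in only 3 of 24 samples, and *Akap5* (0.52), *Adcy7* (-0.35) and *Pde8b* (0.27) at day 2. After adjustment in limma their p-values were all 1.00. *Pde3a* was also the gene in the interaction.

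Taken within each genotype, the lesion changed 13 genes in WT at day 2, 7 higher and 6 lower, against 11.2% of all names (5.16% higher and 6.06% lower). In KO it changed 12, 4 higher and 8 lower, against 11.9% (5.54% and 6.4%). At day 5 it changed 19 in WT, 6 higher and 13 lower, against 13.9% (6.43% and 7.49%), and 15 in KO, 5 higher and 10 lower, against 12.8% (6.14% and 6.7%). Whether these counts differ between genotypes is the interaction, in which no gene passed. *Pde1a* rose by 2.06 in WT and 2.12 in KO at day 5, *Pde1c* by 1.37 and 1.34, *Pde4b* by 1.02 and 1.03, and *Pde7a* by 1.15 and 0.97. *Pde11a* was at -1.23 and -1.03 and *Prkar2b* at -1.23 and -1.01. These counts depended on the samples. At day 2 the WT count fell to 8 without WT control replicate 3 or WT day 2 replicate 2, and the KO count to 7 without KO control replicate 3 or KO day 2 replicate 1. On arrays of 1 time point they were 4 and 7 at day 2 and 5 and 5 at day 5.

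**Figure D5:**
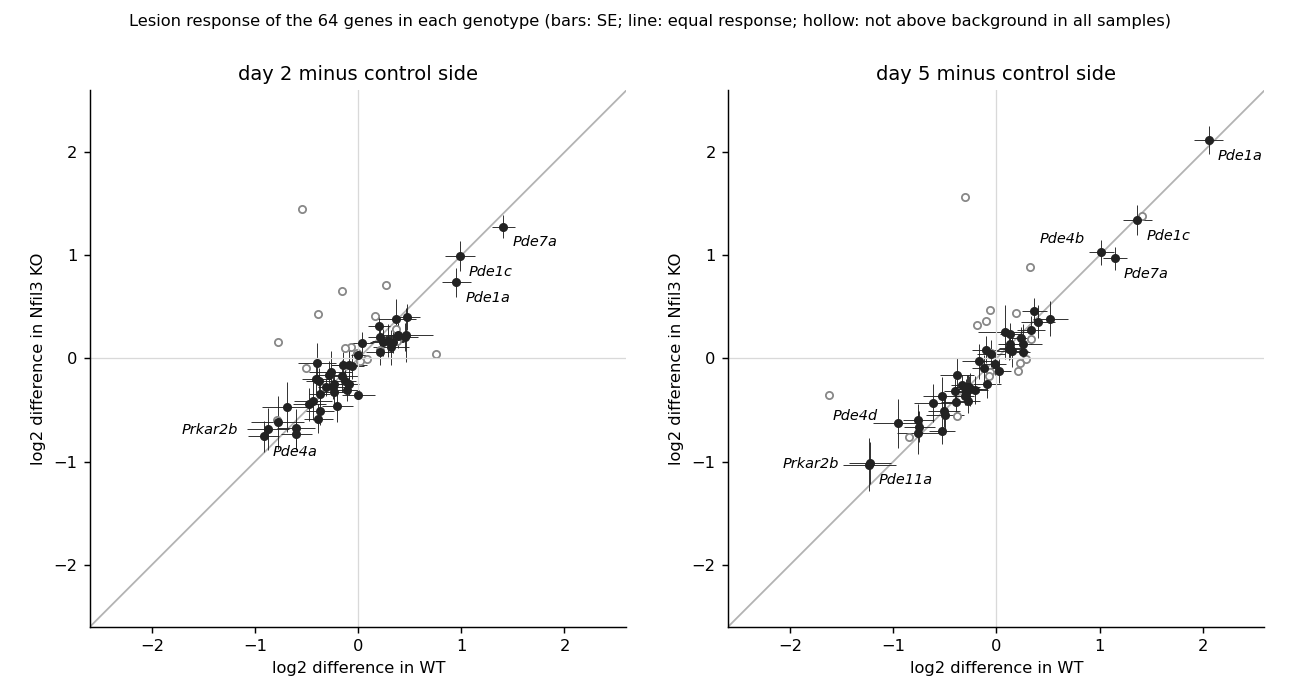
Log2 difference from control of each of the 64 genes in WT (x axis) and in *Nfil3* KO (y axis) at day 2 (left) and day 5 (right), with SE bars for genes above background in all samples. Hollow points are genes that were not, and the line marks an equal response. Points far from the line are hollow, and *Pde1a* at day 5 lies at 2.06 in WT and 2.12 in KO.

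CREB binds the palindrome TGACGTCA and the shorter TGACG, and NFIL3 binds TTACGTAA and TTATGTAA. These letters were searched on both strands in a window from 250 bases before to 50 bases after each annotated start in the RefSeq table of GRCm38.p6, which holds 53 of the 64 genes. *Pde7a* is not among them. TGACGTCA, which includes TGACG, was found for 1 of the 53 genes, *Prkar1a*, and for 2.03% of all 27025 genes in the table. TGACG was found for 18 of the 53 (34%) and for 23% of all genes. Of the genes described in detail, *Pde1a*, *Pde4a*, *Pde4b*, *Pde8b* and *Prkacb* held it in at least 1 window. *Adcy1*, *Akap5*, *Pde1c*, *Pde4c*, *Pde4d*, *Pde6b*, *Pde11a*, *Prkar2b*, *Rapgef2* and *Rapgef5* did not. TTACGTAA and TTATGTAA were found for none of the 53 and for 0.126% and 1.11% of all genes. A match describes letters only, and genes with more annotated starts had more windows to match.

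The 250 bases before the start are given for 4 of them, for the raised *Pde1a* and *Pde4b* at a start that holds the short site, for the full site of *Prkar1a*, and for the lowered *Prkar2b*, which has neither. Capitals mark TGACGTCA or TGACG, the latter written CGTCA where it lies on the other strand. The positions in GRCm38.p6 are chr2:80038903-80039152 on the minus strand (1 of 4 starts of *Pde1a*), chr4:102421305-102421554 on the plus strand (1 of 4 starts of *Pde4b*), chr11:109650699-109650948 on the plus strand (1 of 6 starts of *Prkar1a*) and chr12:32061278-32061527 on the minus strand (1 of 2 starts of *Prkar2b*):
Pde1a: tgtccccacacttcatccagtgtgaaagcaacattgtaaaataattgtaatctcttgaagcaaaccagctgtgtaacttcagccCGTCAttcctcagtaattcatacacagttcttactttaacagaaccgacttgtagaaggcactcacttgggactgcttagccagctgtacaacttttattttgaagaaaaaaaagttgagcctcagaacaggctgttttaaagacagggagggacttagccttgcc
Pde4b: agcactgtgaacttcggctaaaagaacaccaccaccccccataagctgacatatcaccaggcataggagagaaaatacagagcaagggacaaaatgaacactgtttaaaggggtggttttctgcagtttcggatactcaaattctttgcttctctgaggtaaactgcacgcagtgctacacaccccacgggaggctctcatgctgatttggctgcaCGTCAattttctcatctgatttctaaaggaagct
Prkar1a: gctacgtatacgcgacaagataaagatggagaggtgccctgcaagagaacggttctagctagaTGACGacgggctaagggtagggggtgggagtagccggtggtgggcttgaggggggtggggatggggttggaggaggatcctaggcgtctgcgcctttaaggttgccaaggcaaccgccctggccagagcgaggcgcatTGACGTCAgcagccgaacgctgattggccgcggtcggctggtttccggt
Prkar2b: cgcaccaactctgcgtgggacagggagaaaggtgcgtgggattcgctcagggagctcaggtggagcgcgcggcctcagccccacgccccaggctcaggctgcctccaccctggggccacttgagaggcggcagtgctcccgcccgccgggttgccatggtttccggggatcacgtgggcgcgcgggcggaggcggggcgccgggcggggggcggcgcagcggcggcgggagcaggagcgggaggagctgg
Of these 4 genes *Prkar1a*, with the full site, was the one that did not pass for the lesion at either time point.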

How the data were processed

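RNA from 24 DRG samples was profiled on 12 Agilent mouse arrays (3 slides), 1 sample per channel, with each dye used for 2 of the 4 samples of a group. The submitters' processing notes name Agilent Feature Extraction 10.7.3.1 and mm9. The deposited files hold the authors' foreground and background intensity per spot, not normalized. From these, the mean foreground was corrected for the median background by the Edwards method, put on a log2 scale and quantile normalized over 24 channels. The study's methods name Edwards correction and quantile normalization. Control spots and outlier spots were left out (417 missing probe values, 0 of them in probes of the 64 genes), and spots of a probe were averaged. Deposited processed signal intensities served as an alternative.

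R 4.3.3, limma 3.58.1 and statmod 1.5.0 were used. In limma, lmFit estimated a mean for each of the 6 groups and eBayes moderated the variances, and p-values were adjusted over 41174 probes by the Benjamini-Hochberg method. Samples were grouped by title. The number of arrays and the signal over background limit the precision. Fold bounds use, on each array of the dim group, the higher of the lowest signal well above background and the probe's own. The genes and lists were chosen with earlier results of these data known. Genes described in detail were those past the lesion F test with a change of at least 0.5 at a time point, and pathway genes with values were those past the threshold with a change of 1 (*Adcyap1*, *Crem*, *Pkib*, *Dusp1* and *Arg1*). The other pathway genes named were chosen after their values were seen. Positions of probes come from the mm9 annotation in the files. The fit was tested on simulated data with known changes. These had independent noise per sample, so the test does not cover the correlation within arrays of the real data (0.26). Alternatives were other background corrections and normalizations, outlier spots kept, a filter on dim probes, other ways to combine probes, dye, slide, replicate number, array and array partner as terms, an intensity trend, samples on arrays of 1 time point, and each sample left out. The time course test in SAMR, globaltest and the binding site analysis of the study were not used here.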

Additional observations from a re-analysis of the deposited data

Results flagged for a closer look

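*Pde11a* was flagged in WT day 5, where replicate 3 lay at 6.62 while the other 3 samples were at 6.03 to 6.10. It was the only flagged group of 96 (16 genes in 6 groups), and chance flags about 1 group in 20. The sample was still below every control sample, and the day 5 difference of *Pde11a* stayed between -1.20 and -1.08 whichever sample was left out.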

How the results depend on the processing

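With each sample left out in turn, the number of genes called ranged from 29 to 37 in the lesion F test, 21 to 32 at day 2, 28 to 33 at day 5, 3 to 5 for day 5 minus day 2, 8 to 17 and 13 to 22 in WT at day 2 and day 5, and 7 to 17 and 10 to 18 in KO. The genotype and interaction counts were 0 in every fit. Samples on arrays of 1 time point gave 16, 18, 13, 1, 4, 5, 7 and 5 genes in the same order as above. Day 5 minus day 2 gave 10 genes without background correction, 8 with normexp or the filter on dim probes, 6 with processed signals, any probe counted, slide as a block or an intensity trend, and 5 with dye as a covariate. WT day 2 gave 22 with normexp and 20 with the filter, which kept 29804 probes. With the mean of all probes, WT day 5 gave 12 and KO day 5 gave 9, and *Pde4b* (-0.046), *Akap7* (0.14), *Pde12* (-0.093) and *Pde4dip* (0.16) at day 2 and *Pde4dip* (0.13) at day 5 turned sign without passing. That setting includes probes near background. Of 59 called changes of single genes, 54 kept their direction under all 15 alternatives that give a value per gene, 20 stayed past the threshold under all of them, and 49 did so in all 24 fits with a sample left out. The medians of all names moved by less than 0.1 between scalings. With the replicate block, day 5 minus day 2 gave 6 genes and no other count moved by over 1.5 times. The numbers were not taken to pair the samples, since no source gives them a shared animal or day and correlations of same-numbered samples' deviations ran from -0.06 to 0.20, not all above 0.1. Some structure by number was present, as 18 of 24 samples correlated best with their own number and the median was 0.07 against -0.05 for samples of another number and array. Numbers 1 and 2 were labelled with Cy3, and 3 and 4 with Cy5. The cause of these changes was not tested.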
